A study of Sus scrofa with 5 samples.

Results

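The miR-148 and miR-152 family comprised 5 mature miRNA names, ssc-miR-148a-3p, ssc-miR-148a-5p, ssc-miR-148b-3p, ssc-miR-148b-5p and ssc-miR-152. They were chosen by name among the 411 mature miRNAs of the deposited table, of which 327 had a read in at least 1 library. The 5 names belong to 3 precursors, and each had a single precursor row. Small RNAs were sequenced from BLs, which were pools of day 7 parthenogenetic pig blastocysts (BL_1 and BL_2), from a line of pig ES-like cells grown with stem cell factor and basic fibroblast growth factor on mouse feeder cells, from PEBs, embryoid bodies aggregated from those ES-like cells in hanging drops without cytokines, and from PFFs, cultured pig fetal fibroblasts. There were 2 libraries of BLs and 1 of each other cell type, so a difference among ES-like cells, PEBs and PFFs has no replicate check. PEBs derive from ES-like cells, the BLs hold no paternal genome, and the PFFs came from fetuses of artificial insemination whose head, limbs and internal organs had been removed.

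A miRNA is a short RNA cut from a hairpin precursor, and either side of the hairpin, the 5p or the 3p arm, can be loaded into an Argonaute protein. The loaded strand finds target mRNAs mainly through its seed, a few bases near its start, and lowers their translation and stability. The main strands of miR-148a, miR-148b and miR-152 share 1 seed and are known for acting on the mRNA of DNA methyltransferases, among other targets, while miR-148a is also abundant in liver and is linked to cholesterol and lipid metabolism. In RefSeq's pig annotation (Sscrofa11.1), whose coordinates are not used here, MIR148B lies within COPZ1 and MIR152 within COPZ2, the genes of related coatomer subunits. MIR148A lies in no annotated gene. Among the nearest protein-coding genes are relatives of each other. NFE2L3, HNRNPA2B1 and CBX3 lie near MIR148A, NFE2, HNRNPA1 and CBX5 lie near MIR148B, and NFE2L1 and CBX1 lie near MIR152.

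The shallowest library was BL_1, with 113743 reads of mature miRNAs, and the deepest was PFF, with 27071931. Levels are given as reads per 1000000 such reads of the library (RPM), so that a miRNA without a read, at a limit of 3 counts, could still stand at 26.4 RPM in the former and at 0.111 RPM in the latter. Folds and orders are on RPM unless another scaling is named. Members with few reads in BL_1 are given with their counts. Column names were followed for the labels. The sequencing sheet of the study lists the mature read totals of the ES-like and PFF libraries the other way round, with more mature reads than aligned reads for ES-like cells. The 6 fibroblast and mesenchyme markers, all in the table, summed to 221749 RPM in the column named for ES-like cells and to 732557 RPM in that named for PFFs, each of the 6 being higher in the latter on RPM. The pluripotent markers ssc-miR-363, ssc-miR-20b and ssc-miR-106a had 41258, 7277 and 3246 RPM in the ES-like column, against 280.0, 40.9 and 14.1 RPM in the PFF column. These 3 were also far lower in BLs than in the ES-like column. BL_1 had 422, 87.9 and 26.4 RPM (the last on 3 reads), and BL_2 had 331, 70.4 and 15.5 RPM. ssc-miR-371-5p, an early embryo miRNA, stood at 324635 and 296148 RPM in the BL libraries and at most at 30.9 RPM elsewhere. Of 9 pluripotent and early embryo markers, 4 were in the table, and miR-302a to miR-302d and miR-367 were not among its names. Counting intervals below are at 95% and cover counting error only, since reads of amplified libraries are not independent molecules.

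The family took up 16.5% of all mature miRNA reads in ES-like cells (95% Wilson interval 16.5 to 16.6%), more than in any other library. It held 6.30% in PEBs (6.28 to 6.31%), 3.33% in BL_2 (3.31 to 3.35%), 2.25% in BL_1 (2.16 to 2.33%) and 1.85% in PFFs (1.84 to 1.85%). As a level, this was 165299 RPM for ES-like cells, 62962 RPM for PEBs, 27904 ± 7683 RPM for BLs (SD, n = 2) and 18495 RPM for the PFFs. The ES-like level lay 5.92-fold above the BL mean, a log2 ratio of 2.57, or 1.89 with TMM and 1.95 with DESeq2's size factors, each larger than the log2 difference of 0.57 between BL_1 and BL_2 on RPM. TMM factors, from edgeR, and size factors rescale libraries by the bulk of their miRNAs. PEBs stood 2.63-fold below ES-like cells (2.62 to 2.63) and PFFs 3.40-fold below PEBs (3.39 to 3.42) on RPM. These log2 ratios of -1.39 and -1.77 were -0.68 and -1.01 with TMM, and the latter was -0.76 with DESeq2's size factors. PFFs and BLs were neighbours in this order, with PFFs at 0.823 times BL_1 and 0.555 times BL_2 on RPM. The direction between them depended on the scaling. The log2 ratio of PFFs to BL_1 was -0.28 on RPM, 0.57 with TMM and 0.055 with DESeq2's size factors, and that to BL_2 was -0.85, -0.082 and -0.37.

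ssc-miR-148a-3p, the main strand of miR-148a, carried most of the family and set its order across libraries. BL_1 and BL_2 gave 2520 and 91072 of its reads, ES-like cells 1020491, PEBs 946939 and PFFs 414622. In this order these correspond to 22155, 32734, 160140, 59744 and 15316 RPM, so ES-like cells were highest and, on RPM, PFFs lowest. With TMM the log2 ratio of PFFs to BL_1 turned from -0.53 to 0.32, so that BL_1 was lowest, and with DESeq2's size factors it was -0.20. It was the most abundant miRNA of ES-like cells and had the rank 4 in PEBs, 8 in BL_2 and PFFs and 10 in BL_1. ES-like cells exceeded PEBs 2.68-fold (2.67 to 2.69) and PFFs 10.5-fold (10.4 to 10.5) on RPM. The log2 ratio from ES-like cells to PEBs was -1.42 on RPM and -0.71 with TMM, and that to PFFs was -3.39 on RPM, -1.91 with TMM and -2.35 with DESeq2's size factors. ES-like cells exceeded BL_1 7.23-fold (6.95 to 7.52) and BL_2 4.89-fold (4.86 to 4.93), while BL_2 was 1.48 times BL_1. Over the BL mean, the log2 ratio of ES-like cells for ssc-miR-148a-3p was 2.54 on RPM, 1.87 with TMM and 1.93 with DESeq2's size factors. Its passenger strand ssc-miR-148a-5p had the same highest and lowest libraries on RPM at a far lower level. With 17, 453, 12331, 8467 and 2414 reads in the same order of libraries, it stood at 149, 163, 1935, 534 and 89.2 RPM. The difference between ES-like cells and PEBs was wider for this strand, at 3.62-fold on RPM, and that between ES-like cells and PFFs was 21.7-fold. As log2 ratios these were -1.86 and -4.44, against -1.14 and -2.96 with TMM and -1.83 and -3.40 with DESeq2's size factors.

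**Figure D1:**
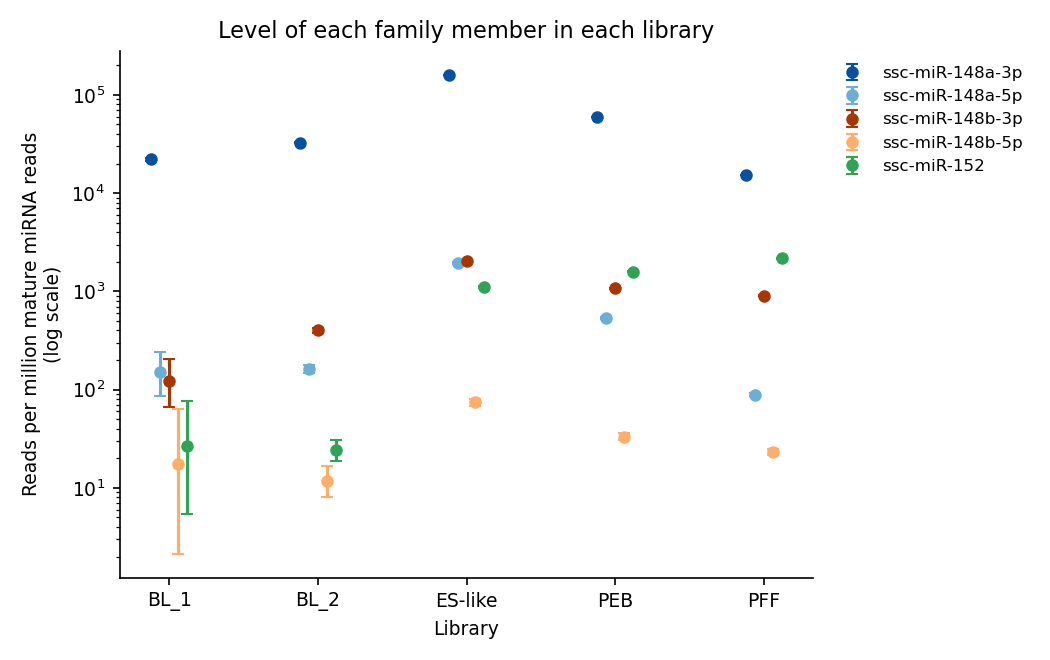
Level of each member as RPM on a log axis, 1 point per library with its exact 95% Poisson interval (counting error only). ssc-miR-148a-3p lies highest in every library, from 15316 RPM in PFFs to 160140 in ES-like cells, while ssc-miR-152 goes from 24.1 RPM in BL_2 to 2168 in PFFs.

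ssc-miR-152 had a different order, with BLs lowest and PFFs highest. From BL_1 it had 3 reads and from BL_2 67, against 7027 from ES-like cells, 24987 from PEBs and 58704 from PFFs, which is 26.4, 24.1, 1103, 1576 and 2168 RPM. The 3 cultured libraries were thus all far above both BL libraries. Relative to BL_2, ES-like cells stood 45.8-fold higher (36.0 to 59.2), PEBs 65.5-fold (51.5 to 84.5) and PFFs 90.04-fold (70.9 to 116). Over the BL mean, the log2 ratio of ES-like cells was 5.45 on RPM, 4.79 with TMM and 4.82 with DESeq2's size factors, and that of PFFs was 6.43, 7.24 and 6.83. Relative to BL_1, where 3 reads stood at the limit for an undetected miRNA, the ratio for the PFFs was 82.2 with an interval from 28.1 to 399. Between the cultured libraries the steps on RPM were 1.43-fold from ES-like cells to PEBs (1.39 to 1.47) and 1.38-fold from PEBs to PFFs (1.36 to 1.40), or log2 steps of 0.52 and 0.46. The median absolute log2 difference between the BL replicates, over the 120 miRNAs with at least 10 reads in both, was 0.46. With TMM the log2 steps of ssc-miR-152 were 1.23 and 1.22, and with DESeq2's size factors 0.55 and 1.46, upward in each case.

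ssc-miR-148b-3p lay between the patterns of the other main strands. Its 14, 1122, 13048, 17020 and 24317 reads, with the libraries ordered as above, gave 123, 403, 2048, 1074 and 898 RPM. All 3 cultured libraries were above both BL libraries, with ES-like cells highest on RPM and PFFs highest with TMM, where the log2 ratio from ES-like cells to PFFs was 0.29. The BL replicates differed 3.28-fold (1.94 to 6.01), a log2 difference of 1.71. Of the 120 miRNAs compared between the BL libraries, 3 differed by more than this member. ES-like cells stood 16.6-fold above BL_1 (9.91 to 30.4) and 5.08-fold above BL_2 (4.78 to 5.40). Over the BL mean, their log2 ratio was 2.96 on RPM, 2.27 with TMM and 2.37 with DESeq2's size factors. They stood 1.91-fold above PEBs (1.86 to 1.95), where the log2 ratio of PEBs to ES-like cells of -0.93 became -0.21 with TMM. PEBs and PFFs were closer than the BL replicates, with a 1.20-fold difference. ssc-miR-148b-5p was the rarest member, with 2, 33, 472, 526 and 629 reads, or 17.6, 11.9, 74.1, 33.2 and 23.2 RPM. Its intervals in BL_1 (2.13 to 63.5 RPM) and BL_2 (8.16 to 16.7 RPM) overlapped, and that of BL_1 also held the PEB and PFF values.

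Because all members of a library share its depth, shares within the family do not depend on how libraries are scaled. ssc-miR-148a-3p made up 98.6% of the family in BL_1 (95% Wilson interval 98.1 to 99.0%) and 98.2% in BL_2 (98.1 to 98.3%). Its share was 96.9% for ES-like cells, 94.9% for the PEBs and 82.8% for the PFFs (82.7 to 82.9%). The shares of ssc-miR-152 and ssc-miR-148b-3p were highest in PFFs. ssc-miR-152 held 0.117% in BL_1 (0.0399 to 0.345%), 0.0722% in BL_2 (0.0569 to 0.0917%), 0.667% among the reads of ES-like cells (0.652 to 0.683%), 2.50% in PEBs (2.47 to 2.53%) and 11.7% in PFFs (11.6 to 11.8%). The BL mean was 0.0948 ± 0.0319% (SD, n = 2), and the step from it to each cultured library was larger than this SD. ssc-miR-148b-3p went from 0.548% in BL_1 and 1.21% in BL_2 to 1.24% in ES-like cells, 1.71% for the PEBs and 4.86% for the PFFs. Its shares in BL_2 and ES-like cells did not differ beyond their intervals (1.14 to 1.28% and 1.22 to 1.26%).

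**Figure D2:**
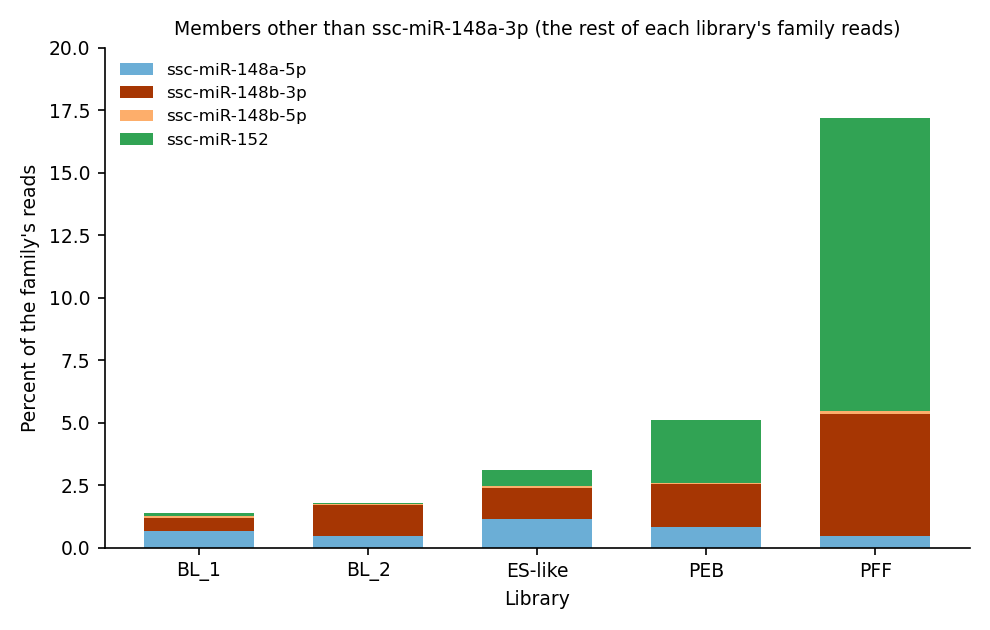
Percent of the family's reads in each library from the 4 members other than ssc-miR-148a-3p, stacked from 0, with libraries along the horizontal axis. ssc-miR-152 takes 11.7% in PFFs, 2.50% in PEBs and at most 0.667% in the other libraries.

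For each read of ssc-miR-152 there were 840 reads of ssc-miR-148a-3p in BL_1 (287 to 4076), 1359 in BL_2 (1070 to 1754), 145 among ES-like reads (142 to 149), 37.9 for PEBs (37.4 to 38.4) and 7.06 in PFFs (7.00 to 7.12). ssc-miR-148a-3p exceeded ssc-miR-148b-3p 180-fold in BL_1 (107 to 330), 81.2-fold in BL_2 (76.5 to 86.2), 78.2-fold for ES-like cells (76.9 to 79.6), 55.6-fold for the PEBs and 17.1-fold for the PFFs. The excess of ssc-miR-148a-3p over both other main strands was thus smallest in PFFs and largest in a BL library. Between the COPZ-hosted members the order itself turned. ssc-miR-152 had 0.0597 reads per read of ssc-miR-148b-3p in BL_2 (0.0460 to 0.0764) and 0.539 in ES-like cells (0.523 to 0.554), but 1.47 in PEBs (1.440 to 1.497) and 2.41 in PFFs (2.38 to 2.45). In BL_1 this ratio was 0.214 (0.0395 to 0.768) on 3 reads of ssc-miR-152. The sources used here do not state how reads matching several miRNAs were assigned. In the same table ssc-miR-199a-3p and ssc-miR-199b-3p had nearly equal counts in every library (1421725 and 1421755 in PFFs), whereas the counts of the 3 main strands here differed, and any sharing of reads between members was not tested.

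The study called a miRNA specific to a cell type when it stood more than 2-fold above each other type, with BLs as the mean of both libraries. It used its own normalized levels, whereas RPM and other scalings were used here, so the calls can differ from the study's. On RPM, 3 of the 5 members passed this rule for ES-like cells, namely ssc-miR-148a-3p, ssc-miR-148a-5p and ssc-miR-148b-5p, against 12.5% of the 327 miRNAs with a read. The strands of miR-148a come from the same precursor, so their passes are not separate. For ssc-miR-148b-5p the excess over PEBs was 2.23-fold, with an interval from 1.97 to 2.53 that holds the threshold. No member passed for BLs, PEBs or PFFs, where 18.7%, 7.34% and 7.95% of all miRNAs did. No member passed the rule for both pluripotent types over both differentiated types or its reverse, passed by 6.73% and 3.98% of all miRNAs. These calls moved with the scaling. With edgeR's TMM factors, ssc-miR-148a-5p alone passed for ES-like cells (4.89% of all miRNAs), because the ratio of ssc-miR-148a-3p between ES-like cells and PEBs had a log2 value of -0.71, and ssc-miR-152 passed for the PFFs (15.6%) and for the differentiated types (15.0%). With DESeq2's size factors, ssc-miR-148a-3p and ssc-miR-148a-5p passed for ES-like cells (8.56%) and ssc-miR-152 for the PFFs (15.6%). ssc-miR-148a-5p was the sole member that passed for ES-like cells under all 3 scalings.

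Taken pair by pair on RPM, 5 of 5 members were more than 2-fold higher in ES-like cells than in BLs, where 49.1% of the 271 miRNAs read in both were, and none was more than 2-fold lower (26.2%). From ES-like cells to PEBs, 3 of 5 were more than 2-fold lower (25.2% of 301 miRNAs) and none more than 2-fold higher (20.3%). Among the lower ones was ssc-miR-148b-5p, at a 2.23-fold difference with an interval from 1.97 to 2.53. From PEBs to PFFs, both strands of miR-148a were more than 2-fold lower (44.3% of 298 miRNAs) and none more than 2-fold higher (15.1%). From ES-like cells to PFFs, 4 of 5 were lower (52.5%) and none higher (15.9%). The counts and shares among the cultured libraries are for RPM, and no such share of all miRNAs was computed for another scaling. TMM raised every log2 ratio by 0.72 from ES-like cells to PEBs, 0.76 from PEBs to PFFs and 1.47 from ES-like cells to PFFs. DESeq2's size factors raised them by 0.03, 1.00 and 1.04. The passes below are therefore not set beside those of all miRNAs. With TMM, ssc-miR-152 passed 2-fold upward in all 3 comparisons of the cultured libraries, with log2 ratios of 1.23 from ES-like cells to PEBs, 1.22 from PEBs to PFFs and 2.45 from ES-like cells to PFFs. From ES-like cells to PEBs, ssc-miR-148a-3p at -0.71 and ssc-miR-148b-5p at -0.44 then missed 2-fold, and from ES-like cells to PFFs so did ssc-miR-148b-3p at 0.29 and ssc-miR-148b-5p at -0.20. With DESeq2's size factors, ssc-miR-148a-3p missed it from PEBs to PFFs at -0.96, ssc-miR-152 passed it upward there at 1.46 and from ES-like cells to PFFs at 2.01, and both strands of miR-148b missed it from ES-like cells to PFFs at -0.15 and -0.64. The median log2 ratio of the members was 2.96 from BLs to ES-like cells, -1.16 from ES-like cells to PEBs and -0.51 from PEBs to PFFs, beside 0.94, -0.23 and -0.77 for all miRNAs read in both types. ssc-miR-152 was the exception, with log2 ratios of 0.52, 0.46 and 0.98 from ES-like cells to PEBs, from PEBs to PFFs and from ES-like cells to PFFs.

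Relative to RPM, TMM shifted every log2 ratio by 0.72 from ES-like cells to PEBs and by 0.76 from PEBs to PFFs, and DESeq2's size factors by 0.03 and 1.00. A member's distance from the median miRNA does not move with such shifts. Over the 211 miRNAs with at least 10 reads in each library but BL_1, ssc-miR-148a-3p lay 1.34 log2 units above the median ratio from BL_2 to ES-like cells, 1.20 below the median from ES-like cells to PEBs and 1.34 below it from PEBs to PFFs. From ES-like cells to PEBs, 26 of the 211 had a lower ratio. ssc-miR-152 lay 4.57, 0.74 and 1.08 above the median in the same comparisons, and 11 of the 211 had a higher ratio from BL_2 to ES-like cells. ssc-miR-148b-3p lay 1.39 above, 0.71 below and 0.36 above. From PEBs to PFFs, both strands of miR-148b were lower on RPM and higher with TMM and with DESeq2's size factors, and the direction of ssc-miR-148b-3p from ES-like cells to PFFs was lower on RPM and with DESeq2's size factors and higher with TMM.

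**Figure D3:**
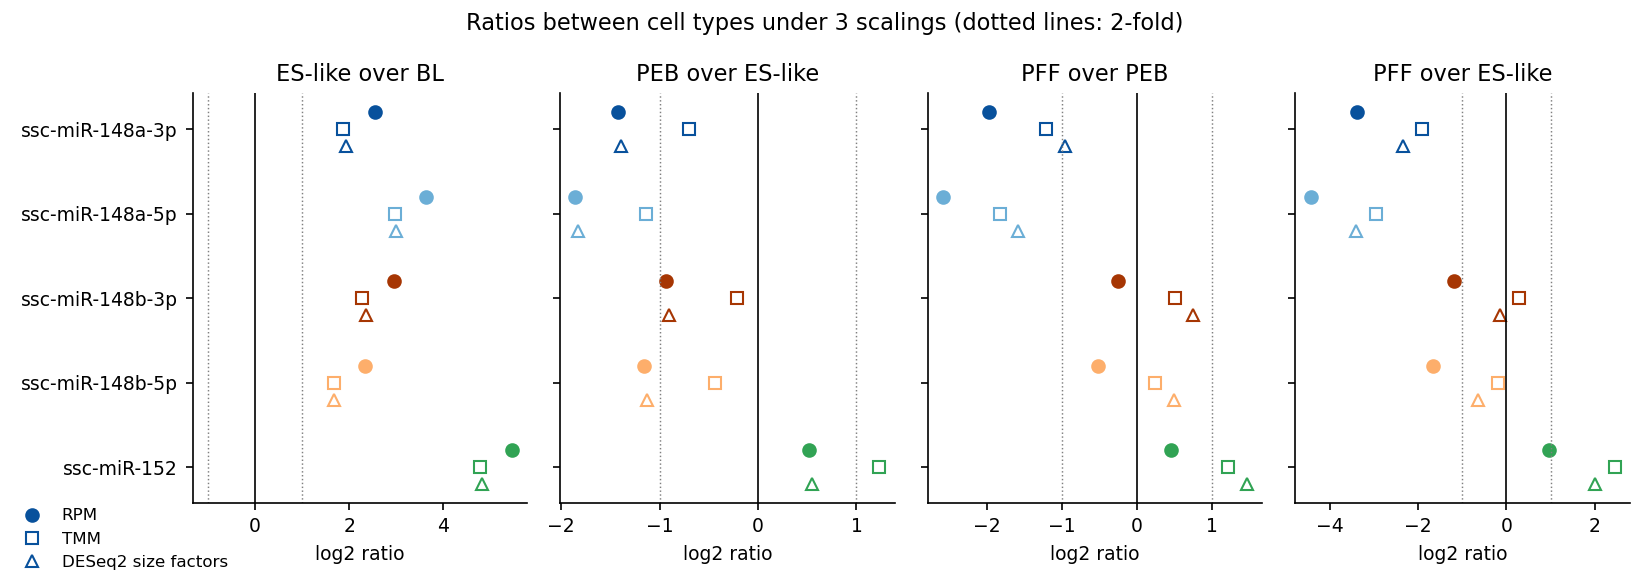
Log2 ratio of each member between cell types on the horizontal axes (BLs as the mean of 2 libraries), with filled circles for RPM, open squares for TMM and open triangles for DESeq2's size factors, and dotted lines at 2-fold. Both strands of miR-148a lie below 0 from ES-like cells to PEBs and from PEBs to PFFs under each scaling, whereas both strands of miR-148b cross 0 from PEBs to PFFs.

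The 3 libraries of pluripotent cells (BLs and ES-like cells) were compared with the 2 of differentiated cells (PEBs and PFFs) by edgeR's quasi-likelihood test on 279 miRNAs. It called 0 of the 5 members and 0% of all miRNAs at a Benjamini-Hochberg adjusted p under 0.05, while 21 miRNAs had an unadjusted p under 0.05. DESeq2 called 14 miRNAs and limma 0, with no member among them. ssc-miR-152 was the member with the largest fitted difference, a log2 fold change of -3.01 (SE 1.61, adjusted p = 0.478 from edgeR). On RPM it was lower in 3 of 3 pluripotent libraries than in both differentiated ones. Leaving out the ES-like library compares BLs alone with PEBs and PFFs, so that fit no longer covers both pluripotent types. It gave ssc-miR-152 a log2 fold change of -6.60 (SE 0.94, adjusted p = 0.0289 from edgeR), among 16 of 227 miRNAs called. Over the other alternatives that kept both PEBs and PFFs, the adjusted p of ssc-miR-152 ranged from 0.301 with DESeq2 to 0.900 with edgeR without BL_2. ssc-miR-148a-3p had a log2 fold change of 0.80 (SE 1.31, adjusted p = 0.938 from edgeR). ES-like cells were above and BL_1 and BL_2 were below the PEB level, and all 3 were above the PFF level on RPM, and without the ES-like library the sign turned to -0.52. The pluripotent group joins 2 BL libraries with ES-like cells, and the differentiated group joins PEBs with PFFs. The spread between cell types within a group is part of the error of this test, along with that between the BL replicates.

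The 3p arm held most reads of both miR-148 precursors in each library. For miR-148a there were 148.2 reads of the 3p arm per read of the 5p arm in BL_1 (exact interval 92.4 to 255), 201 in BL_2 (183 to 221), 82.8 in the ES-like library (81.3 to 84.2), 112 for PEBs (109 to 114) and 172 in PFFs (165 to 179). The ratio was lowest in ES-like cells, where both arms were at their highest RPM, and the intervals of ES-like cells and PEBs lay below those of BL_2 and PFFs. The BL replicates themselves spanned 148.2 to 201, a range that holds the PFF ratio. For miR-148b the ratio was 34.0 in BL_2 (24.1 to 49.6), 27.6 in the ES-like library (25.2 to 30.4), 32.4 for PEBs (29.7 to 35.4) and 38.7 in PFFs (35.7 to 41.9). In BL_1 it was 7.00 (1.61 to 63.5), on 2 reads of the 5p arm. Of the 32 precursor names with both arms at 10 or more reads in each library but BL_1, miR-148a had the rank 22 and miR-148b the rank 30 by the range of their log2 ratio over the libraries, at 1.28 and 0.48 beside a median of 1.93. The 3p arm was ahead in each of the 4 libraries for 15 of the 32 names.

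**Figure D4:**
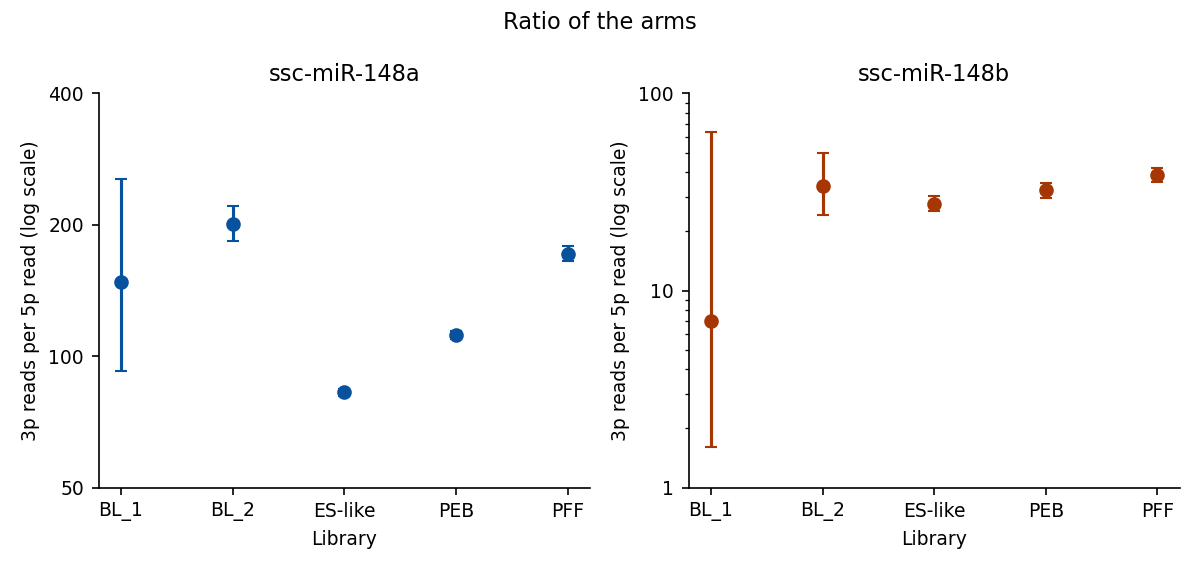
Reads of the 3p arm per read of the 5p arm on log axes for each library, with exact 95% counting intervals. For miR-148a the ratio is lowest in ES-like cells at 82.8, and for miR-148b the points from BL_2 to PFFs lie between 27.6 and 38.7.

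The profile of ssc-miR-148a-3p was compared with those of 115 other miRNAs that had at least 10 reads in every library, by the root mean square difference of their centred log2 RPM over the 5 libraries. The closest were ssc-miR-30b-5p at 0.45, its own 5p arm at 0.46 and ssc-miR-340 at 0.46, beside a median distance of 1.57. ssc-miR-148b-3p came at place 38 with 1.11, below that median. The closest to ssc-miR-148b-3p were ssc-miR-16 at 0.60, ssc-miR-101 at 0.62 and ssc-miR-744 at 0.72. ssc-miR-148a-3p came at place 29 there, at 1.11 beside a median of 1.63. ssc-miR-152 had fewer than 10 reads in BL_1, so its profile was compared without that library, a choice made after the counts were seen. Among 210 miRNAs over the other 4 libraries, the closest were ssc-miR-542-3p at 0.44, ssc-miR-199b-5p at 0.55 and ssc-miR-98 at 0.59. ssc-miR-148b-3p and ssc-miR-148a-3p came at places 53 and 111, at 2.05 and 2.78 beside a median of 2.74. With this many candidates, some other miRNA is likely to lie nearer than a member with the shared seed. No conclusion on the likeness of the main strands is therefore drawn from the nearest miRNAs.

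Lists of cell type markers were set beside the members, and their courses matched those of members in part only. The 4 liver and endoderm markers miR-122, miR-192, miR-194a and miR-215 summed to 1961 RPM in BL_1 and 1397 in BL_2, against 107997 for ES-like cells, 57390 for the PEBs and 18.5 for the PFFs. Each of the 4 was highest in ES-like cells, and all but miR-215, with 0 reads in BL_1, were lowest in PFFs. ssc-miR-122, the liver miRNA, had 101004 RPM in ES-like cells and 54096 in PEBs. ES-like cells were therefore the highest library and PEBs the next both for this list and for ssc-miR-148a-3p, but from PEBs to PFFs the list went from 57390 to 18.5 RPM while ssc-miR-148a-3p was 3.901-fold lower. The part of liver-like or endoderm-like cells in the level of ssc-miR-148a-3p was not tested. The 6 fibroblast and mesenchyme markers summed to 38983 and 70287 RPM in the BL libraries, 221749 for ES-like cells, 368603 for the PEBs and 732557 for the PFFs, the same order of cell types as for ssc-miR-152 on RPM. In PFFs 522808 RPM of the sum came from ssc-miR-21, and ssc-miR-199a-3p, ssc-miR-199b-3p and ssc-miR-214 were highest in PEBs, with ssc-miR-214 at 774 RPM there and 516 in PFFs. Reads of ssc-miR-199a-3p and ssc-miR-199b-3p, nearly equal in count, enter this sum under both names. ssc-miR-145-5p and ssc-miR-214, which mark mesenchyme, had 0 reads in the first BL library and at most 3 in the second. Mouse feeder cells share these fibroblast miRNAs, and their part in the reads of ES-like cells was not tested. In these bulk libraries, a change in the share of a cell type cannot be told apart from a change of the RNA per cell. Of the epithelium markers, ssc-miR-205 alone was in the table, at 4748 and 5753 RPM in BLs and at most 71.7 RPM elsewhere. Blood cell markers, 4 of 5 in the table, summed to at most 84.5 RPM, in PEBs.

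**Figure D5:**
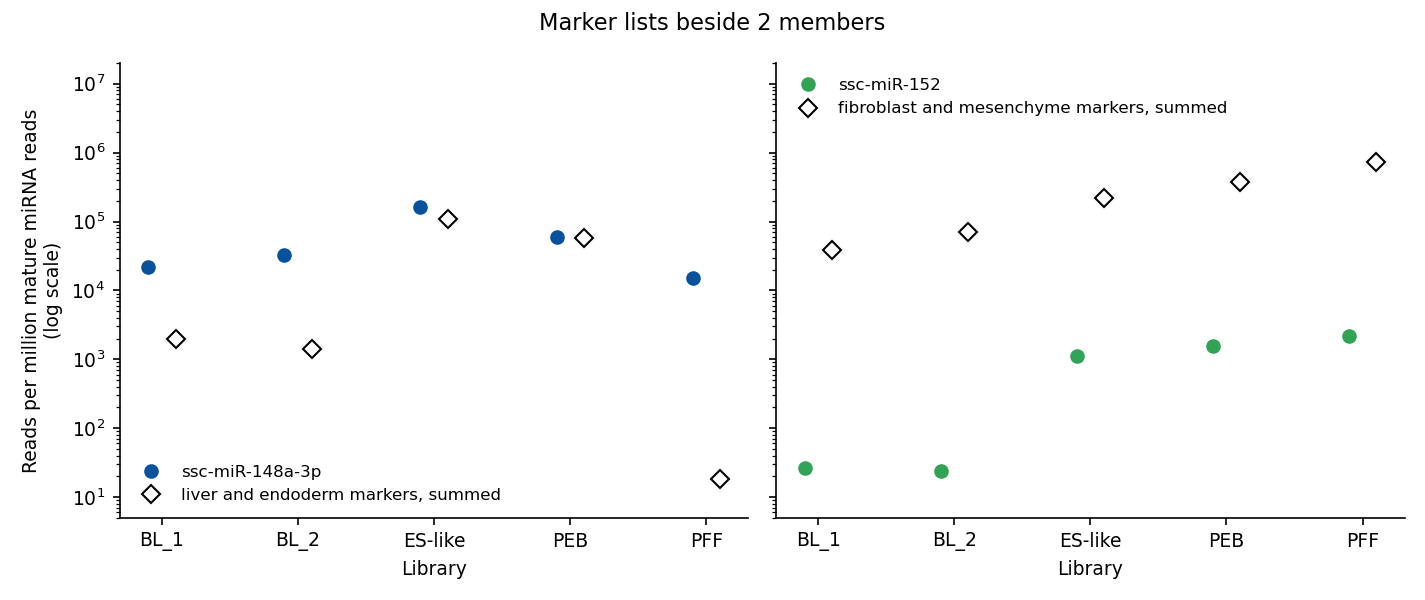
Level of ssc-miR-148a-3p beside the summed liver and endoderm markers (left) and of ssc-miR-152 beside the summed fibroblast and mesenchyme markers (right), as RPM on a log axis for each library. The liver markers are highest in ES-like cells at 107997 RPM, as is ssc-miR-148a-3p, and the summed fibroblast markers are highest in PFFs at 732557 RPM, as is ssc-miR-152, although 3 of the 6 single markers are highest in PEBs.

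Other miRNAs known for acting on DNA methyltransferase mRNAs were read as a list of 7. Of these, 5 were more than 2-fold higher in ES-like cells than in BLs on RPM (49.1% of all miRNAs), 1 was more than 2-fold lower in PEBs than in ES-like cells (25.2%), and from PEBs to PFFs 1 was higher (15.1%) and 1 lower (44.3%). ssc-miR-29a, of the miR-29 family that acts on DNMT3A and DNMT3B, had 8.79 and 17.3 RPM in the BL libraries, 3486 for ES-like cells, 3177 for the PEBs and 1910 for the PFFs. Like ssc-miR-152 it was low in both BL libraries and high in the cultured ones, but on RPM it was lowest among those in PFFs. ssc-miR-185 differed little, with 1213 RPM in BL_1, 2395 in BL_2 and from 1431 to 2016 in the cultured libraries. ssc-miR-126-3p was highest in ES-like cells at 1294 RPM, as was ssc-miR-148a-3p. The median log2 ratio of the list from BLs to ES-like cells was 4.11, beside 0.94 for all miRNAs.

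A list of 5 miRNAs that lie by Hox clusters took no common course. ssc-miR-10b, of the HOXD cluster, was highest in BLs with 28485 and 36027 RPM against 4389 in ES-like cells. ssc-miR-10a-5p, of the HOXB cluster, was highest in PEBs with 11824 RPM, whereas ssc-miR-152 was highest in PFFs. ssc-miR-615, of the HOXC cluster, had 0 and 5 reads in the BL libraries, and 80.0 RPM for ES-like cells, 212 for the PEBs and 85.8 for the PFFs. Of the 5, 3 were more than 2-fold higher and 1 more than 2-fold lower in ES-like cells than in BLs, beside 49.1% and 26.2% of all miRNAs.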

How the data were processed

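The authors removed short reads and reads lacking an adapter, used Cutadapt 1.10 for trimming and Bowtie 1.1.1 for alignment (versions as in the submitters' processing notes), with Sscrofa10.2 as the genome build, and assigned reads to known miRNAs in miRDeep2. The deposited table holds raw read counts, 1 column per library and 1 row per pair of mature miRNA and precursor. The authors' own normalized values were not used here, and neither was the table of predicted loci, which could not be matched to members by name. No columns were without a sample. Counts were summed over precursor rows and divided by the mature reads of the library (RPM). Intervals are exact Poisson intervals for levels, exact binomial intervals for ratios and Wilson intervals for shares. The members, lists and rules were chosen with earlier results of these data known. Named miRNAs are the members, the 3 with the closest profile to each main strand, and members of lists of miRNAs that act on DNA methyltransferases, lie by Hox clusters or mark cell types. edgeR 4.0.16 was run with TMM where 3 or more libraries had over 5 reads, and was tested on simulated data. The simulated libraries varied less within groups than the real ones, so they do not show the power of the test here. DESeq2 1.42.0 and limma 3.58.1 were alternatives, under R 4.3.3. Levels, shares and intervals were computed in Python 3.11.15 (scipy 1.17.1). The result for 1 gene is not reported here. Alternatives were other scalings, thresholds and filters, and each library left out in turn.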

Additional observations from a re-analysis of the deposited data

How the results depend on the processing

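The log2 ratio of the family from BLs to ES-like cells was 2.57 on RPM, 1.89 with TMM and 1.95 with DESeq2's size factors. From ES-like cells to PEBs it was -1.39 on RPM, -0.68 with TMM, -1.36 with DESeq2's size factors, -1.34 with the most abundant miRNA left out of each library's total and -1.27 with the largest precursor count. From PEBs to PFFs these were -1.77, -1.01, -0.76, -1.002 and -1.98. The miRNA left out of the total was ssc-miR-148a-3p in ES-like cells, ssc-miR-21 in PEBs and PFFs, and ssc-miR-371-5p in BLs. A different miRNA was thus dropped between cell types. In ES-like cells the family's main member left the total but still counted as family reads. The ratios of PEBs and PFFs to BLs were put through these alternatives after the data were seen. From BLs to PEBs the family's log2 ratio was 1.17 on RPM and 0.59 with DESeq2's size factors. From BLs to PFFs it was -0.59 on RPM, 0.21 with TMM, -0.17 with DESeq2's size factors and -0.057 with the most abundant miRNA left out, so its direction turned with TMM. With a 4-fold threshold, 0 members passed for a cell type, against 3 with 2-fold, all for ES-like cells, where 12.5% of all miRNAs passed at 2-fold. The share of all miRNAs passing at 4-fold was not computed, so this count is not set beside it. edgeR called 0 miRNAs, DESeq2 14, and edgeR without the ES-like library 16. Leaving out 1 library at a time gave from 0 to 16. Leaving out PEBs or PFFs leaves 1 differentiated library, which is assumed to vary like the others. For the log2 ratios of single members between cell types, 158 of 165 alternative values kept their sign. The exceptions were both strands of miR-148b. Under TMM these values took BLs as a mean. Against BL_1 by itself, PFFs turned from lower to higher with TMM for both strands of miR-148a. ssc-miR-148b-3p from ES-like cells to PFFs turned from -1.19 to 0.29 with TMM. Without the ES-like library, BLs were the sole pluripotent type. The fitted log2 fold changes of ssc-miR-148a-3p and ssc-miR-148a-5p between pluripotent and differentiated libraries then turned to -0.52 and -1.02. These were the low ends of leave-one-out ranges that reached 1.25 and 1.89. The fitted log2 fold change of ssc-miR-148b-5p, -0.04, turned to 0.031 with DESeq2's size factors, 0.33 with library size and 0.045 with DESeq2. It was 0.24 without BL_1, 0.24 without BL_2 and 0.25 without PFFs. Without BL_1 or BL_2, the share of ssc-miR-152 in BLs ranged from 0.0722 to 0.117% and the arm ratio of miR-148a from 148.2 to 201, and the family's log2 ratio to ES-like cells from 2.31 to 2.88. No paired analysis was possible because replicate numbers exist for BLs only. Depth limits BL_1, where 4 of the 5 members had 17 or fewer reads. The cause of these changes was not tested.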
